A study of Rattus norvegicus with 9 samples.

Results

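Tp63 and 6 of its epithelial target genes, Perp, Fgfr2, Satb1, Tfap2c, Cdh3 and Dlx3, were followed through phorbol ester treatment of cultured rat horizontal basal cells. The members were a fixed list of 7 symbols, and all 7 of 7 were found among the 17315 genes of the count tables and among the 10128 genes that passed the filter on low counts. RNA came from SD rat horizontal basal cells, which lie at the base of the olfactory epithelium and act as its reserve stem cells, grown as a primary culture to passage 7. Vehicle cultures had 0.1% DMSO and are labelled time 0, and the treated cultures had 50 nM of the phorbol ester PMA, which switches on protein kinase C, and were taken after 6 h or 12 h, with 3 libraries in each of the 3 groups. Nothing in the labels ties the 3 libraries of a group to separate cultures or animals, and the p-values then cover no more than the spread between libraries, which may be technical. No vehicle libraries are labelled 6 h or 12 h, so PMA and time in culture cannot be told apart. The word target follows the list's name, and read counts show no binding of p63 to any gene.

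Tp63 encodes p63, a transcription factor of the p53 family that basal cells of stratified and pseudostratified epithelia need, and in horizontal basal cells it holds the cells in their resting state. Its loss releases these cells to divide and to replace the cells of the epithelium. In skin, p63 is known to activate genes of adhesion (Perp of desmosomes, and Cdh3, which encodes P-cadherin), of growth signalling (Fgfr2, a receptor for fibroblast growth factors) and of gene control (Satb1, a chromatin organiser, Tfap2c, which encodes the factor AP-2 gamma, and Dlx3, a homeobox factor of the differentiating layers). Tp63 has an upstream start that makes TAp63 proteins and an internal start that makes ΔNp63, the main form of basal cells. The count tables hold 1 value for the whole gene, so the forms were not told apart.

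Between 13601635 and 19001819 reads per library fell in genes, a share of 67.8% to 71.3%. Levels are given in CPM, a count scaled to the same TMM-adjusted library total in every library, and are compared within a gene and not between genes, because transcript lengths were not used. Changes are log2 fold changes ± SE from edgeR's quasi-likelihood test, and a gene is called changed where the Benjamini-Hochberg adjusted p over all 10128 genes was under 0.05. Most of the transcriptome passed this threshold: 76.8% of the genes were called at 6 h against vehicle, 75.8% at 12 h against vehicle and 51.1% at 12 h against 6 h. A call alone therefore sets few genes apart, and the size and direction of each change are given with it. At 6 h 3831 genes were higher and 3945 lower than in vehicle, and at 12 h 3818 were higher and 3864 lower. With upper-quartile scaling these were 3023 higher and 4837 lower at 6 h and 2963 higher and 4827 lower at 12 h. That scaling shifted the median gene by -0.26 at 6 h and by -0.27 at 12 h, and no normalization shifted it by -0.54 and -0.58, so the direction of changes smaller than this depends on the scaling. The TMM factors were 0.85 to 0.91 in the treated libraries and 1.28 to 1.31 in the vehicle libraries. Of 13 basal cell markers 11 were tested, with Krt5, Krt14, Itga6 and Icam1 read in every library, while Otx2 had no read and Pax6 stayed under 1 CPM, so these 2 defining factors were absent or nearly so. In bulk RNA, fewer cells of a type and less RNA per cell cannot be told apart.

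Tp63 itself fell steeply by 6 h and was part of the way back at 12 h. Its level was 249.6, 205 and 202 CPM in the 3 vehicle libraries, 48.9, 50.5 and 44.3 CPM at 6 h and 96.1, 88.7 and 87.3 CPM at 12 h. The 3 groups did not overlap, with every vehicle library above every 12 h library and every 12 h library above every 6 h library. At 6 h it averaged 47.9 ± 3.18 CPM, against 219 ± 26.6 CPM in vehicle (SD, n = 3 each), 21.9% of the vehicle level, and had fallen by 2.19 ± 0.09 on the log2 scale (adjusted p = 7.7e-13). At 12 h it averaged 90.7 ± 4.72 CPM, 41.4% of vehicle, and had fallen by 1.27 ± 0.09 (adjusted p = 8e-10). Between these times it rose, with 12 h above 6 h by 0.92 ± 0.09 (adjusted p = 4.1e-07). Among all genes tested, 6.28% had a lower log2 fold change than Tp63 at 6 h and 15.9% had a lower one at 12 h. These 3 calls held under all alternatives tried, with -2.73 to -2.09 at 6 h and -1.85 to -1.17 at 12 h against vehicle.

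The start of the gene is shown because the count sums transcripts from every start. The window printed here runs from 250 bases before to 50 after the annotated start, from RefSeq on the GRCr8 assembly, at chr11:88554128-88554427 on the minus strand. This start lies 366 bases from the outer end of the annotated gene, so it is not the internal start of ΔNp63. No capitals appear in it because neither TGANTCA, the AP-1 motif known as the phorbol ester response element, nor GCCNNNGGC, the AP-2 motif, was found on either strand, which says only that these letters are not in this window.
Tp63: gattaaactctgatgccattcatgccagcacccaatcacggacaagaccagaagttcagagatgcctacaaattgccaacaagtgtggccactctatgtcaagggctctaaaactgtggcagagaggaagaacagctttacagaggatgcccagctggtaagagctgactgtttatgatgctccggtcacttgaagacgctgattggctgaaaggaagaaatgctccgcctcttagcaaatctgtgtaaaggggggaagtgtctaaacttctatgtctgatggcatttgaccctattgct

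**Figure D1:**
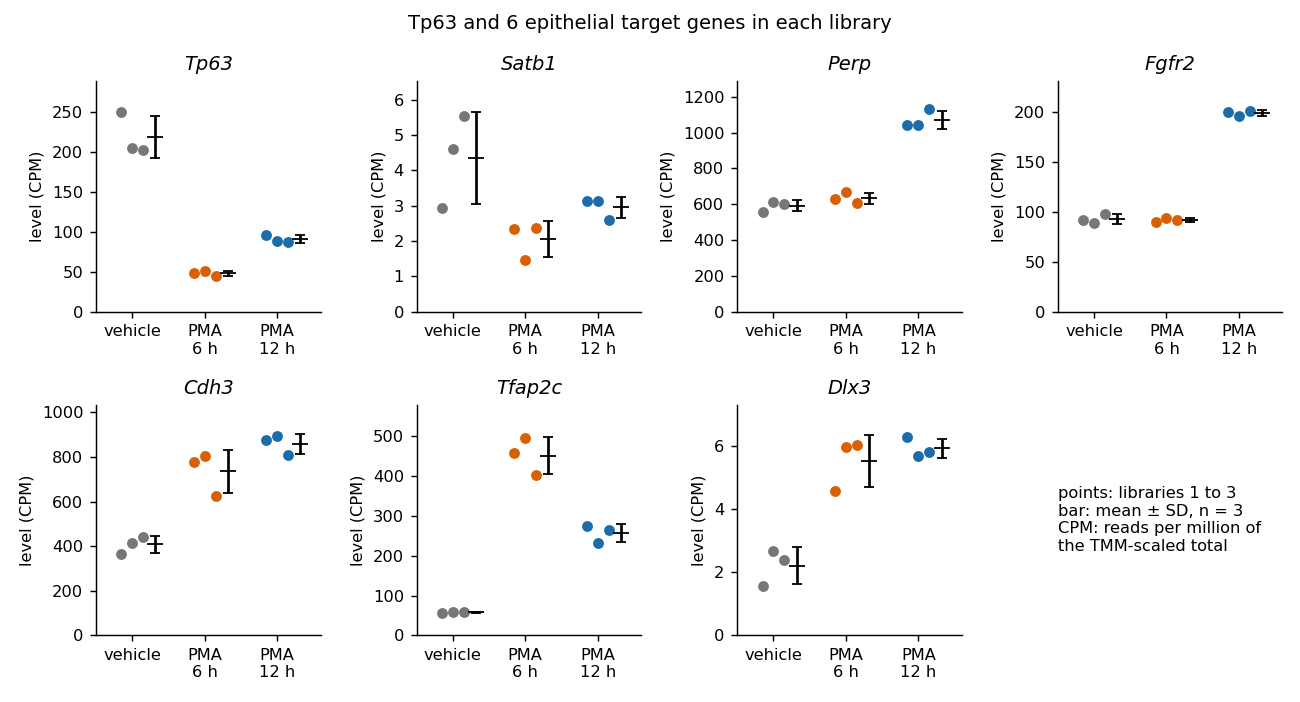
Levels in CPM on a linear axis from 0, 1 panel a gene, for vehicle, PMA 6 h and PMA 12 h. Points are libraries 1 to 3 and the bar beside them is the mean ± SD. Tp63 is lowest at 6 h (44.3 to 50.5 CPM), Perp and Fgfr2 overlap with vehicle at 6 h and lie above it at 12 h, and Tfap2c is highest at 6 h (402 to 496 CPM).

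The 6 target genes did not follow Tp63 as a group. At 6 h Satb1 was lower, Tfap2c, Cdh3 and Dlx3 were higher, and Perp and Fgfr2 did not pass the test. Counting Tp63, 3 members rose and 2 fell, where 37.8% of all genes rose and 39.0% fell. At 12 h Perp, Fgfr2, Tfap2c, Cdh3 and Dlx3 were higher than in vehicle, Tp63 was lower and Satb1 did not pass. That is 5 members higher and 1 lower, where 37.7% of all genes were higher and 38.2% lower. The median log2 fold change of the 7 members was 0.10 at 6 h and 1.07 at 12 h, beside -0.03 and -0.02 over all genes tested. Both comparisons share the vehicle libraries. Groups did not overlap for 5 of the 7 members at 6 h against vehicle, where 79.0% of all genes did not, and for 6 of 7 at 12 h, where 78.7% did not.

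Satb1, which shapes chromatin in epidermal progenitors, was the 1 target gene that fell. Its level was 2.93, 4.60 and 5.52 CPM in vehicle, 2.35, 1.47 and 2.37 CPM at 6 h and 3.13, 3.12 and 2.60 CPM at 12 h. These levels rest on few reads, 279 over the vehicle libraries, 95 at 6 h and 119 at 12 h. All 6 h libraries were below all vehicle libraries, and the 12 h libraries overlapped with vehicle as vehicle replicate 1 was low. Satb1 fell by 1.06 ± 0.30 on the log2 scale at 6 h (adjusted p = 0.0045). At 12 h the difference from vehicle was -0.55 ± 0.30 (adjusted p = 0.1, 95% interval -1.18 to 0.08), and it passed the test at -0.77 without vehicle replicate 1, at -0.82 with upper-quartile scaling and at -1.13 without normalization. The step between 6 h and 12 h did not pass either (0.51 ± 0.32, adjusted p = 0.2), although the 12 h libraries all lay above the 6 h libraries.

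Perp and Fgfr2 passed the test at 12 h and not at 6 h, and both were higher at 12 h than at 6 h. Perp, a membrane protein of desmosomes that p53 and p63 both activate, stood at 558, 615 and 602 CPM in vehicle, 628, 668 and 608 CPM at 6 h and 1042, 1042 and 1131 CPM at 12 h. The vehicle and 6 h libraries overlapped and all 12 h libraries lay above both groups. Perp rose by 12 h, to 1072 ± 51.2 CPM against 592 ± 29.7 CPM in vehicle (log2 fold change 0.86 ± 0.07, adjusted p = 1.1e-08). At 6 h the difference was 0.10 ± 0.07 (adjusted p = 0.22, 95% interval -0.05 to 0.26), but the sign turned with upper-quartile scaling (-0.16) and without normalization (-0.44), where it passed the test. From 6 h onward it rose by 0.76 ± 0.07 (adjusted p = 3e-07), a step that 11.8% of all genes exceeded.

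Fgfr2 encodes a receptor whose epithelial splice form binds ligands made by mesenchyme, such as Fgf7 and Fgf10. It stood at 91.7, 88.4 and 98.4 CPM in vehicle, 90.3, 94.0 and 92.2 CPM at 6 h and 201, 196 and 202 CPM at 12 h. The first 2 groups overlapped, and the 12 h libraries lay above both, with a coefficient of variation of 1.47%. At 12 h Fgfr2 was 2.15-fold higher than in vehicle (log2 fold change 1.10 ± 0.07, adjusted p = 1.9e-10) and 2.16-fold higher than at 6 h (1.11 ± 0.07, adjusted p = 2.3e-09). At 6 h against vehicle the difference was -0.01 ± 0.07 (adjusted p = 0.9, 95% interval -0.16 to 0.14). With upper-quartile scaling that difference became -0.27 and without normalization -0.55, and both passed the test. Counts per gene do not part the epithelial from the mesenchymal splice form of Fgfr2.

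The starts of Perp and Fgfr2 are set beside each other because these genes moved together, their centred log2 levels differing by 0.16 in root mean square over the 9 libraries. Both windows are RefSeq on GRCr8, 250 bases before to 50 after the start: Perp at chr1:15361534-15361833 on the plus strand and Fgfr2 at chr1:194280865-194281164 on the minus strand. Capitals mark TGANTCA and GCCNNNGGC, searched on both strands.
Perp: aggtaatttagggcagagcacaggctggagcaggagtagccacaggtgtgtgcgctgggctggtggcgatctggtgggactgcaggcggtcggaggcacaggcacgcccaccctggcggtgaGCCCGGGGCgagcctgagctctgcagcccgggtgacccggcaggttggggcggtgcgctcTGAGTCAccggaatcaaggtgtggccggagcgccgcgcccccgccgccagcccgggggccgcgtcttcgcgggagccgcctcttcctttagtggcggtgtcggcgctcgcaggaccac
Fgfr2: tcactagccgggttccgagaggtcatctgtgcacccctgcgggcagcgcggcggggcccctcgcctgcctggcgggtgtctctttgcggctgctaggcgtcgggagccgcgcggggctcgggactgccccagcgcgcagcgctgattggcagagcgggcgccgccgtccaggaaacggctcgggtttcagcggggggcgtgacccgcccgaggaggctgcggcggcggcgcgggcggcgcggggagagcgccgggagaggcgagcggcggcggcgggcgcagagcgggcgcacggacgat

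Perp has 1 match to TGANTCA, from base -68 to base -62 relative to the start, which 7.33% of the 33469 promoter windows of the same length hold at least once. It also has 1 match to GCCNNNGGC, from -128 to -120, a motif found in 15.1% of windows. Fgfr2 has neither. The core of a pair of p53 family half-sites, 2 copies of CNNG with 6 bases between them, occurs 6 times in the Perp window and 4 times in the Fgfr2 window, in places overlapping the other motifs or itself, and in 67.5% of all windows. The Perp window was 71.3% G and C and that of Fgfr2 77.7%, against 47% in the Tp63 window. A match is a description of letters and not of a site in use. Windows were found for 4 of the 7 members. The Satb1 window and the Tp63 window held no match to any of the 3 motifs.

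Cdh3, Tfap2c and Dlx3 rose within 6 h. Tfap2c moved furthest: its level was 55.5, 59.3 and 58.1 CPM in vehicle, 458, 496 and 402 CPM at 6 h and 275, 233 and 264 CPM at 12 h. Every library of a group lay apart from those of the other groups, with 6 h highest. At 6 h Tfap2c was 7.84-fold higher than in vehicle (log2 fold change 2.97 ± 0.09, adjusted p = 1.1e-14), a rise that 2.80% of all genes exceeded. At 12 h it was 4.46-fold higher (2.16 ± 0.09, adjusted p = 5.7e-13), having fallen by 0.81 ± 0.08 on the log2 scale since 6 h (adjusted p = 5.9e-07). Tfap2c and Tp63 were thus both closer to vehicle at 12 h than at 6 h, from opposite sides.

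Cdh3, the cadherin of basal layers, stood at 367, 415 and 443 CPM in vehicle, 778, 802 and 625 CPM at 6 h and 875, 894 and 809 CPM at 12 h. The treated libraries all lay above the vehicle libraries. It rose by 0.85 ± 0.10 on the log2 scale at 6 h (adjusted p = 3.4e-07) and stood 1.07 ± 0.10 above vehicle at 12 h (adjusted p = 1.8e-08). The step from 6 h to 12 h, 0.23 ± 0.10, fell just short of the threshold (adjusted p = 0.058). It passed without any 1 of vehicle replicates 1 and 3, PMA 6 h replicate 2 and PMA 12 h replicate 3, where it was 0.23, 0.23, 0.29 and 0.27.

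Dlx3 stood at 1.55, 2.66 and 2.39 CPM in vehicle, 4.57, 5.95 and 6.01 CPM at 6 h and 6.26, 5.67 and 5.81 CPM at 12 h. All treated libraries lay above all vehicle libraries, and the 6 h and 12 h libraries overlapped. It was 2.50-fold higher at 6 h (log2 fold change 1.32 ± 0.25, adjusted p = 0.00014) and 2.68-fold higher at 12 h (1.42 ± 0.26, adjusted p = 7.4e-05) than in vehicle. The difference between the times was 0.10 ± 0.24 (adjusted p = 0.75, 95% interval -0.41 to 0.62). Dlx4, its neighbour in the Dlx cluster, had 14 reads over the 12 h libraries, 7 over the 6 h libraries and 2 over the vehicle libraries, too few for the test, and of the 5 Dlx genes in the files Dlx3 alone passed the filter.

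**Figure D2:**
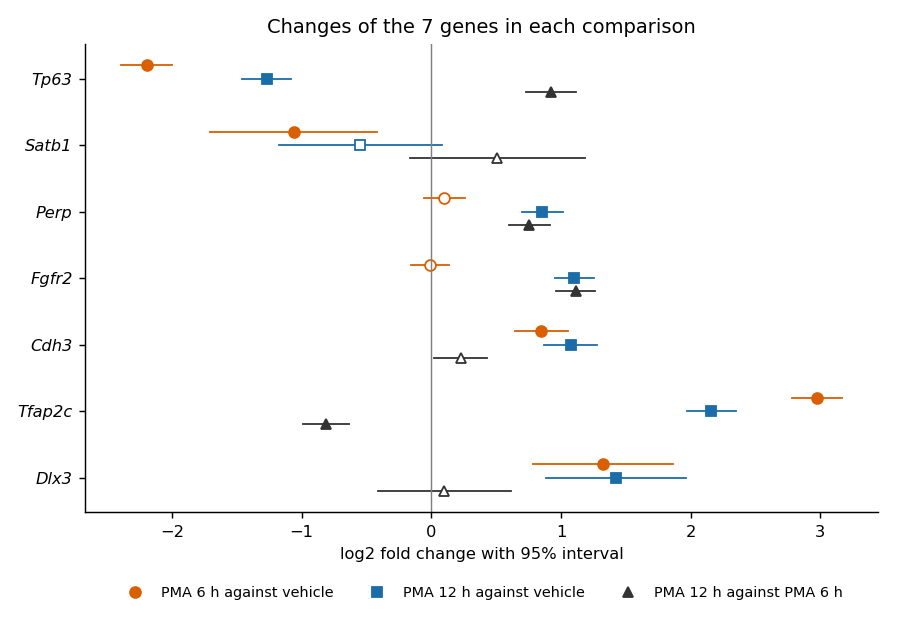
Log2 fold changes on the x axis with 95% intervals for each gene, 1 symbol a comparison, filled where the adjusted p was under 0.05. Tp63 is negative at 6 h and 12 h against vehicle (-2.19 and -1.27) and positive between the times (0.92), and Tfap2c is its opposite (2.97, 2.16 and -0.81).

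**Figure D3:**
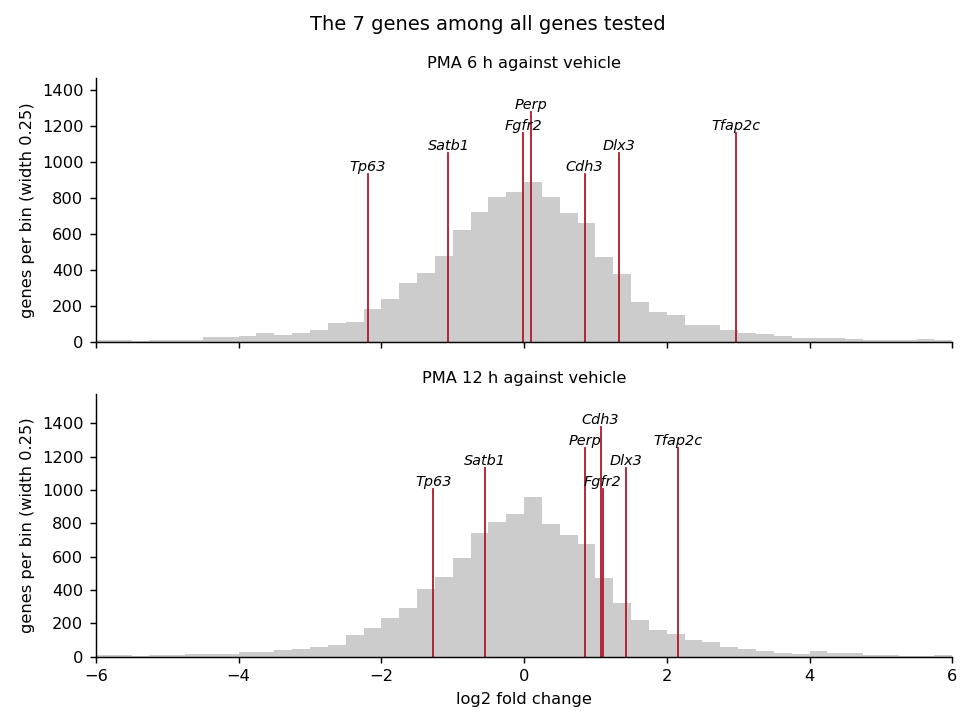
Histogram of the log2 fold changes of all 10128 genes tested against vehicle, in bins of width 0.25, with a red line at each of the 7 genes. The x axis shows -6 to 6. Tfap2c and Tp63 lie toward opposite tails, and Perp and Fgfr2 lie near 0 at 6 h and near 1 at 12 h.

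From 6 h to 12 h 3 members rose, Tp63, Perp and Fgfr2, and Tfap2c fell, where 25.3% of all genes rose and 25.8% fell. Of the rises, that of Fgfr2 was the largest, and 5.80% of all genes had a higher log2 fold change. For Tp63 this share was 8.38%. The libraries of these times did not overlap for 6 of the 7 members, Dlx3 being the exception, where 58.0% of all genes did not overlap.

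The p63 family and the proteins that bind or degrade p63 were read from a list of 19 genes. Of the 14 tested, 5 rose and 6 fell at 6 h and 5 were higher and 8 lower at 12 h. Tp63 itself was among the lower ones, and the median log2 fold change was -0.03 and -0.30. Of all genes 37.8% rose and 39.0% fell at 6 h, and 37.7% were higher and 38.2% lower at 12 h. With upper-quartile scaling 3 of the 14 were higher and 8 lower at both times. Without normalization 3 were higher and 10 lower at 6 h, and 2 were higher and 10 lower at 12 h. Tp73, a gene of the same family, was close to absent, with 8 reads over the 6 h libraries and 3 over the 12 h libraries, against 54 over the vehicle libraries. Its 6 h call was lost with DESeq2 and without PMA 6 h replicate 1 or 2 or vehicle replicate 2 or 3. Itch, a ubiquitin ligase that marks p63 for degradation, rose in all treated libraries, to 105 CPM at 6 h and 110 CPM at 12 h against 39.3 CPM in vehicle (log2 fold change 1.42 ± 0.09 and 1.48 ± 0.09, adjusted p = 1.1e-10 and 6.7e-11). Wwp1, a related ligase, was lower at 6 h (-0.31 ± 0.10, adjusted p = 0.0067) and did not differ by the test at 12 h (0.16 ± 0.10, adjusted p = 0.14; -0.42 and lower without normalization). Nedd4, another ubiquitin ligase of the list, averaged 701 CPM at 6 h and 848 CPM at 12 h, against 1295 CPM in vehicle. At 6 h it was lower by the test (-0.89 ± 0.08, adjusted p = 2.4e-08). The progenitor factor Sox2 was lower at both times (-2.06 and -0.99). Its reads were few, 31 over the 6 h libraries, 59 over the 12 h libraries and 191 over the vehicle libraries. Without PMA 6 h replicate 2 Sox2 was at -2.70 at 6 h, and leaving out replicate 2 or 3 of either PMA 12 h or vehicle ended its 12 h call. The p53 partner Ppp1r13b (0.86 and 1.21) and the deubiquitinase Usp28 (1.29 and 0.64; the 12 h call was lost without normalization) were higher at both times. The deacetylases Hdac1 and Hdac2 were lower at 12 h (-0.30 and -0.40) and did not pass at 6 h (0.10 and -0.08; Hdac2 passed at -0.33 with upper-quartile scaling, and both passed as lower without normalization). Mdm2, a ubiquitin ligase that binds p53 and is itself a p53 target, was 0.22 above vehicle at 6 h and 0.21 at 12 h. With upper-quartile scaling it turned in sign (-0.03 and -0.06) and passed at neither time, and without normalization it was lower (-0.31 and -0.37). Its 6 h call was also lost without PMA 6 h replicate 1 or 2 or vehicle replicate 1, and its 12 h call without PMA 12 h replicate 1 or 2 or vehicle replicate 1 or 3 and in a fit of the 2 groups compared.

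A wider list held 28 further genes linked to activation by p63 in epithelia, of which 22 were tested. They split in both comparisons: 11 rose and 8 fell at 6 h, and 11 were higher and 7 lower at 12 h. Among all genes 37.8% rose and 39.0% fell at 6 h, and 37.7% were higher and 38.2% lower at 12 h. The list's median log2 fold changes were 0.29 and 0.14, beside -0.03 and -0.02 over all genes tested. With upper-quartile scaling 9 were higher and 10 lower at both times, with medians of 0.04 and -0.13, and without normalization 6 were higher and 12 lower at 6 h and 7 higher and 13 lower at 12 h. The genes that fell furthest were the basal keratins Krt5 and Krt14, the hemidesmosome collagen Col17a1 and Skp2, a ubiquitin ligase subunit of the cell cycle. Krt5 was at -4.08 at 6 h and -3.80 at 12 h, Krt14 at -2.77 and -2.39, and Col17a1 at -1.73 and -1.50. Skp2 was at -2.12 and -4.50. At 12 h it was -7.41 without PMA 12 h replicate 1, -3.91 without PMA 12 h replicate 2 and -5.56 with limma-voom. Skp2 had 14 reads over the 12 h libraries and 84 over the 6 h libraries, against 518 over the vehicle libraries. The size of its 12 h change is therefore imprecise. Among those that rose, Ovol1, a zinc finger repressor of differentiating epithelia, was at 454, 490 and 420 CPM at 6 h, against 5.91, 6.83 and 7.49 CPM in vehicle, and at 169, 130 and 153 CPM at 12 h (6.08 ± 0.12 and 4.49 ± 0.12, adjusted p = 2.4e-16 and 3.8e-15). Hbp1, a transcriptional repressor, rose at both times (2.74 and 2.0).

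Several of these genes were called at 1 time only or in opposite directions. Gata3, a factor of luminal and differentiating epithelial cells, did not pass at 6 h (0.35 ± 0.33, adjusted p = 0.34) and was higher at 12 h, at 8.51, 7.12 and 9.28 CPM against 1.25, 1.29 and 0.956 CPM in vehicle (2.81 ± 0.30, adjusted p = 1.6e-07). Trim29, a TRIM family protein of epithelia, passed at 12 h (0.36) and not at 6 h (-0.10). With upper-quartile scaling this turned round, as it passed at 6 h (-0.35) and not at 12 h (0.09), and without normalization it was lower at both times (-0.63 and -0.22). Chuk, which encodes the kinase IKK alpha (0.28 at 6 h and -0.06 at 12 h), Dsg3 of desmosomes (0.56 and 0.09) and the glutathione peroxidase gene Gpx2 (0.70 and -0.08) passed at 6 h and not at 12 h. The 6 h call of Chuk was lost with upper-quartile scaling (0.02) and without PMA 6 h replicate 3 or vehicle replicate 1, and without normalization it was lower (-0.26). The 6 h calls of Dsg3 and Gpx2 were lost without normalization (0.02 and 0.16), which also gave Dsg3 as lower at 12 h (-0.49). At 12 h Chuk and Gpx2 passed as lower with upper-quartile scaling (-0.33 and -0.35). Ripk4, a kinase of epidermal differentiation, was 1.28 above vehicle at 6 h. Its 12 h value of 0.18 passed, but turned in sign with upper-quartile scaling (-0.09) and without normalization (-0.40), and the call was lost without PMA 12 h replicate 1 or 3, without vehicle replicate 1 or 3, with no filter on low counts, with the replicate block and in a fit of the 2 groups compared. Egfr, the receptor for epidermal growth factor, was lower at 6 h (-0.24 ± 0.09, adjusted p = 0.021; lost without PMA 6 h replicate 2 or vehicle replicate 1) and higher at 12 h (0.64 ± 0.09, adjusted p = 4.5e-06; lost without normalization).

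Of 10 genes linked to repression by p63, 8 were tested, and 6 rose and 2 fell at 6 h, while 7 were higher and 0 lower at 12 h (1 lower with upper-quartile scaling, without normalization or without PMA 12 h replicate 2). Without normalization 4 were higher and 2 lower at 6 h and 6 were higher at 12 h. Their median log2 fold change was 1.14 at 6 h and 1.32 at 12 h, beside -0.03 and -0.02 over all genes tested. The shares of all genes called were 37.8% higher and 39.0% lower at 6 h, and 37.7% and 38.2% at 12 h. Cdkn1a, the inhibitor p21 of cyclin-dependent kinases, stood at 1594, 1498 and 1294 CPM at 6 h, against 422, 485 and 519 CPM in vehicle (1.62 ± 0.10, adjusted p = 8.8e-11), and at 1268, 1256 and 1470 CPM at 12 h (1.49 ± 0.10, adjusted p = 3e-10). Hes1, an effector of Notch signalling, was 2.04 ± 0.09 above vehicle at 6 h and 2.63 ± 0.09 at 12 h. Igfbp3, a binding protein of insulin-like growth factors, was 3.11 ± 0.27 and 3.36 ± 0.28 above. Cdkn2a, which encodes the p16 and p19 inhibitors, crossed sides: 46.4, 45.7 and 37.1 CPM at 6 h and 98.3, 112 and 119 CPM at 12 h, against 54.8, 60.9 and 61.1 CPM in vehicle. It was lower at 6 h (-0.45 ± 0.10, adjusted p = 0.00063) and higher at 12 h (0.90 ± 0.10, adjusted p = 3e-07). Notch1, a receptor gene, was lower at 6 h (-0.42) and did not pass at 12 h (-0.12), where it passed at -0.39 with upper-quartile scaling, at -0.70 without normalization and at -0.23 without PMA 12 h replicate 2.

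**Figure D4:**
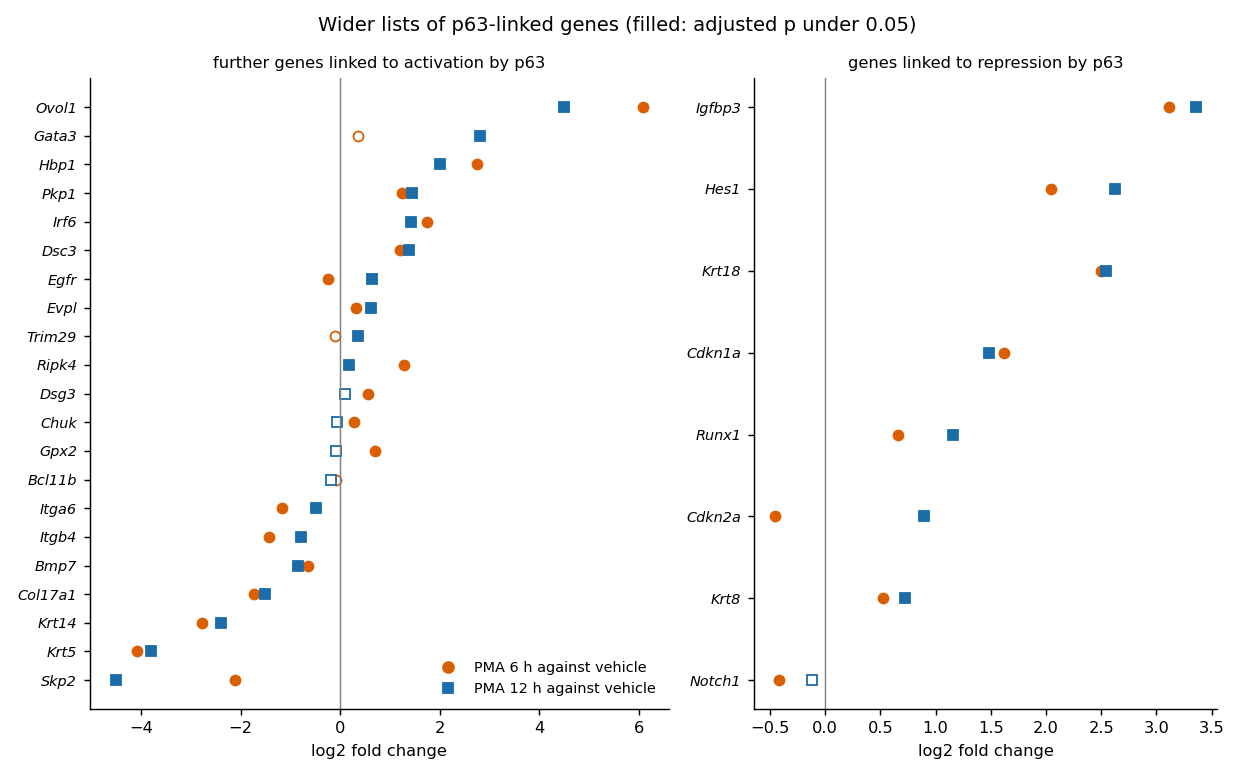
Log2 fold changes against vehicle at 6 h (circles) and 12 h (squares) for further genes linked to activation by p63 (left) and the 8 linked to repression (right), ordered by the 12 h value and filled where the adjusted p was under 0.05. The left panel runs on both sides of 0, with Ovol1 at 6.08 and 4.49 and Krt5 at -4.08 and -3.80, and the right panel is mostly above 0. The panels have different x axes.

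Perp is also a textbook p53 target, so the other genes of that class were read beside it. Of 14 p53 targets tested, Perp included, 5 rose and 5 fell at 6 h, and 6 were higher and 3 lower at 12 h (3 and 5, and 6 and 6, with upper-quartile scaling; 3 and 7, and 6 and 8, without normalization). The median log2 fold change was 0.12 at 6 h and 0.06 at 12 h, and -0.13 and -0.21 with upper-quartile scaling. Among all genes 37.8% rose and 39.0% fell at 6 h, and 37.7% were higher and 38.2% lower at 12 h. Pmaip1, which encodes the death protein Noxa, was higher at both times (1.49 ± 0.07 and 2.36 ± 0.07, adjusted p = 2.9e-12 and 1.1e-14). Bbc3, which encodes the death protein Puma, and the nuclease gene Aen were 1.08 and 1.30 above vehicle at 12 h. Ccng1 was lower at both times (-0.83 and -1.03), and so was the death receptor gene Fas (-1.71 and -0.73).

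The relatives and partners of Tfap2c, Fgfr2 and Cdh3 were read in the same way. Tfap2a, the other AP-2 gene that passed the filter, rose beside Tfap2c, to 210 CPM at 6 h against 35.7 CPM in vehicle (2.56 ± 0.08, adjusted p = 1.7e-14), and stood at 135 CPM at 12 h (1.92 ± 0.08, adjusted p = 6.4e-13). Tfap2b and Tfap2d had no read in any library, and Tfap2e had 1. Grhl3, a grainyhead factor of differentiating epidermis, rose further, to 563, 613 and 509 CPM at 6 h, against 12.3, 13.1 and 14.3 CPM in vehicle (5.41 ± 0.10, adjusted p = 9.1e-17), and was at 182, 165 and 157 CPM at 12 h (3.67 ± 0.10). Its relative Grhl2 was lower at 6 h (-0.34 ± 0.09, adjusted p = 0.0022) and did not pass at 12 h (-0.12 ± 0.09, adjusted p = 0.24; it passed at -0.39 with upper-quartile scaling).

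Of 15 genes of FGF signalling 9 were tested, Fgfr2 included, and 4 rose and 2 fell at 6 h, while 5 were higher and 4 lower at 12 h (4 higher and 4 lower at 6 h with upper-quartile scaling). Over all genes tested the shares were 37.8% higher and 39.0% lower at 6 h, and 37.7% and 38.2% at 12 h. The 3 tested tyrosine kinase receptors differed in course. Fgfr1 was at 101, 97.6 and 89.5 CPM at 6 h, against 7.73, 8.59 and 11.3 CPM in vehicle (3.39 ± 0.12, adjusted p = 8.3e-14), and at 49.1, 50.3 and 52.1 CPM at 12 h (2.46 ± 0.12, adjusted p = 6.1e-12). It was lower at 12 h than at 6 h (-0.93 ± 0.11, adjusted p = 2.2e-06), while Fgfr2 was higher. Fgfr3 was lower at both times (-1.67 ± 0.25 and -1.44 ± 0.25, adjusted p = 9.7e-06 and 5e-05). Of the ligands of the epithelial receptor form, Fgf7 had no read and Fgf10 had 2 reads over the 12 h libraries, while Fgf22 was lower (-0.99 at 6 h, a call lost without vehicle replicate 1, and -2.10 at 12 h). Fgfbp1, which releases FGFs from the matrix, did not pass at 6 h (-0.13 ± 0.15, adjusted p = 0.46; it passed at -0.38 with upper-quartile scaling) and was lower at 12 h (-1.31 ± 0.15, adjusted p = 1.1e-05). Esrp1 and Esrp2, the splicing factors that make the epithelial receptor form, were higher at both times (0.78 and 2.05 at 6 h, 0.96 and 1.45 at 12 h).

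All 6 tested cadherin and catenin genes, Cdh3 included, rose at 6 h and were higher at 12 h, under each scaling tried. Of all genes 37.8% rose at 6 h and 37.7% were higher at 12 h. Cdh1, which encodes E-cadherin, was at 3531, 3611 and 3412 CPM at 6 h, against 1208, 1014 and 910.2 CPM in vehicle (1.75 ± 0.09, adjusted p = 1.3e-11), and at 2423, 2536 and 2359 CPM at 12 h (1.22 ± 0.09, adjusted p = 1.6e-09). It was lower at 12 h than at 6 h (-0.53 ± 0.09, adjusted p = 0.00011). Their catenin partners Ctnnb1 (2.24 and 1.66), Ctnna1 (1.45 and 1.84), Ctnnd1 (1.30 and 0.78) and Jup (1.10 and 1.17) were above vehicle at both times. Cdh2, the cadherin of mesenchymal and neural cells, had too few reads for the test.

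**Figure D5:**
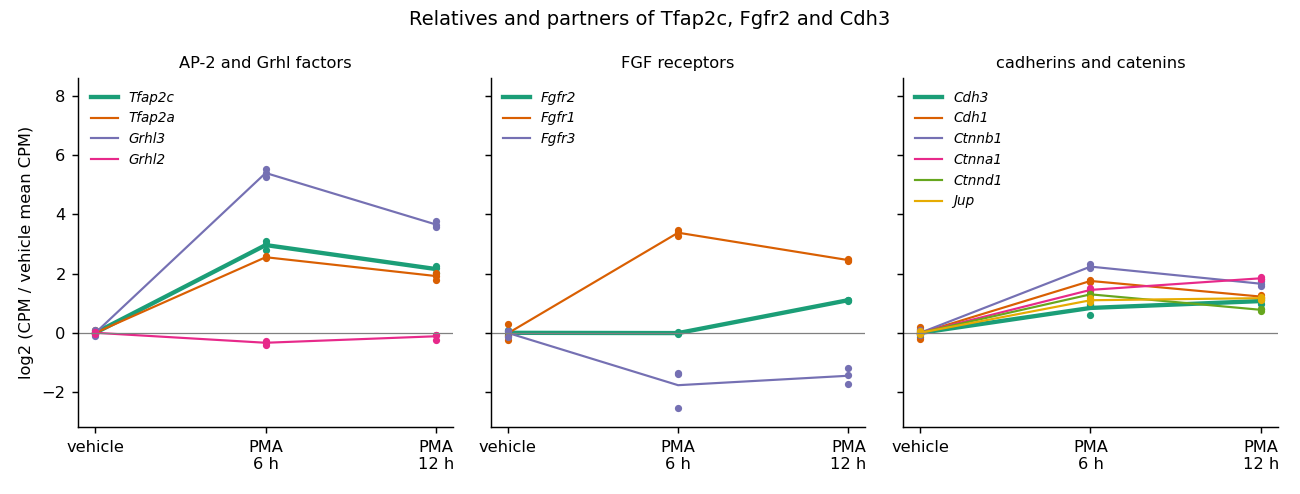
Level of each gene relative to its vehicle mean (log2 of the CPM ratio, y axis) for vehicle, PMA 6 h and PMA 12 h. Points are libraries and lines join group means, thick for Tfap2c, Fgfr2 and Cdh3. Grhl3 and Fgfr1 peak at 6 h as Tfap2c does, Fgfr2 is raised at 12 h, and Fgfr3 lies below 0.

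Genes whose pattern was most like that of each member were found by the smallest root mean square difference of centred log2 CPM over the 9 libraries. For Tp63 they included Wrb (0.11), Acaca (0.12), Rprd1a (0.13) and Smim3 (0.16). Acaca, which encodes the first enzyme of fatty acid synthesis, stood at 15.2 CPM at 6 h and 25.0 CPM at 12 h, against 62.3 CPM in vehicle. For Perp they were Actn1 (0.05), Cnpy4 (0.06) and Tprg1l (0.08), and for Fgfr2 they included Pxn (0.08) and Cdcp1 (0.09). Actn1 and Pxn encode alpha-actinin and paxillin, proteins of the actin cytoskeleton and its adhesions. For Tfap2c they were Hbegf, a ligand of the EGF receptor (0.08), Epn3 (0.09) and Rbm47 (0.13). For Cdh3 they were Praf2, Mbp and Rexo1 (0.09 to 0.10), for Dlx3 Trim24, Elovl7 and Dock6 (0.15 to 0.16), and for Satb1 Tipin, Fkbp3 and Pmf1 (0.17 to 0.18). The 9 libraries form 3 groups, so each likeness rests mostly on 3 group means.

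Markers of other cell types were measured beside these results. Counts of markers called stand beside 37.8% of all genes higher and 39.0% lower at 6 h, and 37.7% and 38.2% at 12 h. The summed level of the 13 basal cell markers, Tp63, Krt5, Krt14, Egfr and Sox2 among them, was 4059 to 4638 CPM at 6 h and 4439.6 to 5103 CPM at 12 h, against 14849.9 to 16762 CPM in vehicle, and of the 11 tested 3 rose and 7 fell at 6 h and 3 were higher and 6 lower at 12 h. Krt5 and Krt14 carried most of the difference. Together they had 1026 to 1268 CPM at 6 h and 1309 to 1652 CPM at 12 h, against 11368 to 13022 CPM in vehicle. The other 11 markers summed to 3033 to 3389 CPM at 6 h and 2891 to 3451 CPM at 12 h. In vehicle they summed to 3482 to 3740 CPM. Cd44 was the largest of these, at 2355 CPM at 6 h and 1684 CPM at 12 h, against 1816 CPM in vehicle. Within that sum genes moved both ways. Itga6 was at 1318 CPM in vehicle, 589 CPM at 6 h and 942 CPM at 12 h. In the same order Krt15 was at 60.7, 20.2 and 7.80 CPM and Icam1 at 143, 176 and 359 CPM. The counts of called basal markers depend on the scaling. Cd44 and Icam1 were called higher at 6 h, but not with upper-quartile scaling (0.12 and 0.04). Without normalization both turned in sign there (-0.16 and -0.24), and Icam1 passed as lower. At 12 h Cd44 passed as lower with upper-quartile scaling (-0.38). The 12 h calls of Egfr and Meis1 as higher were lost without normalization. The summed level of 10 sustentacular and gland markers was 1350.0 to 1556 CPM in vehicle. It was 2684 to 2704 CPM at 6 h and 3202 to 3619 CPM at 12 h. The keratin Krt8 was the largest part of the level, at 1304 CPM in vehicle, 1871 CPM at 6 h and 2150 CPM at 12 h. The rise was shared with other genes of the list. In the same order Hes1 was at 96.7, 399 and 597 CPM, Cd24 at 45.1, 317 and 471 CPM, and Sox9 at 18.0, 72.5 and 137 CPM. All 5 tested markers of that list were higher at both times (Krt8 at neither time without normalization), and Krt8, Krt18 and Hes1 also stand in the list linked to repression by p63, whereas the defining genes Cyp2g1, Cyp1a2 and Ermn had no read in any group. Of 10 fibroblast and pericyte markers 8 stayed under 1 CPM in every group, and so did 9 of 13 neuronal, 7 of 8 respiratory and microvillar, 5 of 7 immune and 7 of 8 endothelial and glial markers. The summed level of the fibroblast and pericyte list was 1.97 to 3.82 CPM in the treated libraries, against 4.51 to 6.0 CPM in vehicle, and that of the respiratory and microvillar list 1.04 to 2.45 CPM against 3.06 to 4.25 CPM. The immune list summed to 70.9 to 95.7 CPM in the treated libraries, against 26.7 to 29.2 CPM in vehicle, and the endothelial and glial list to 0.881 to 4.16 CPM against 0.425 to 0.863 CPM. Col1a2, Pdgfrb, Lum, Ptprc, Gap43 and Sox10 had no read in any library. The immune sum was carried by Cd68 of lysosomes, which stood at 69.4 CPM at 6 h and 85.6 CPM at 12 h, against 19.6 CPM in vehicle. Cd14, a receptor gene of monocytes, went the other way, to 1.48 CPM at 6 h and 3.26 CPM at 12 h, against 7.80 CPM in vehicle (log2 fold change -2.40 ± 0.27 and -1.25 ± 0.25, adjusted p = 3.8e-07 and 0.00023). Kdr, an endothelial receptor gene, had 29 reads over the 6 h libraries and 97 over the 12 h libraries, against 0 over the vehicle libraries, and stayed at or below 3.64 CPM. The neuronal list summed to 110.2 to 118 CPM at 6 h and 185 to 200.4 CPM at 12 h, against 181 to 211 CPM in vehicle, nearly all of it Adcy3, a gene of cilia. The part of these genes in the changes of the 7 members was not tested.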

How the data were processed

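RNA sequencing of 9 libraries was deposited as whole-number read counts per gene, which the authors made with STAR 2.7.5b on the rat build rn6, per the submitters' processing notes, which also name DESeq2. No source used here names the gene annotation. The unstranded count column was used, and the 9 columns of the deposited normalized table were not. The lines naming no gene held 28.7% to 32.2% of the reads and were left out. The counts were filtered (edgeR filterByExpr, minimum count 10), scaled by TMM and tested with edgeR 4.0.16 (quasi-likelihood, robust) in R 4.3.3 over all 3 groups, with p-values adjusted by Benjamini-Hochberg at 0.05. Limma 3.58.1 and DESeq2 1.42.0, other scalings, no filter, a replicate block and leaving out each library were alternatives. The fit was run on simulated data drawn from the vehicle profile with few genes changed. That setting does not test the scaling of these data, where most genes were called. Intervals are 95% intervals of the model. Likeness between genes used log2 CPM with a prior count of 2. The members, gene lists and tests were chosen with earlier results of these data known. All members were named. In lists of over 15 genes those named were the 4 highest and 4 lowest called at 12 h and those whose call differed between the times, and any other gene named was chosen after its values were seen. Some genes that this rule names are not reported here.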

Additional observations from a re-analysis of the deposited data

Results flagged for a closer look

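Levels at PMA 12 h and PMA 6 h differed for 4 of the 7 genes, by the edgeR test of 12 h against 6 h. Of all genes tested 51.1% were called there, a share near that of the 7 genes. With no vehicle libraries labelled 6 h or 12 h, PMA and time in culture cannot be told apart here. The log2 difference was 0.92 for Tp63, 0.76 for Perp, 1.11 for Fgfr2 and -0.81 for Tfap2c. Egfr lay below all vehicle libraries at 6 h and above them at 12 h, with a difference of 0.88 between the times. Cdkn2a crossed the vehicle libraries in the same direction, with a difference of 1.35.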

How the results depend on the processing

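Of 357 recomputed fold changes of the 7 genes, 341 kept their direction and their side of the threshold, 11 passed where the reported value had not, and 5 turned in sign. Those 5 were changes that had not passed: Perp at 6 h against vehicle, at -0.16 with upper-quartile scaling and at -0.44 without normalization, where it passed, and 3 values with 1 library left out. With 1 library left out at a time, Fgfr2 at 6 h against vehicle ran from -0.048 to 0.030, and it was above 0 when vehicle replicate 3 was dropped and, at 0.0057, when PMA 6 h replicate 1 was. Dlx3 at 12 h against 6 h ran from -0.015 to 0.18, and PMA 6 h replicate 1 was the library whose omission put it below 0. Fgfr2 at 6 h passed at -0.27 with upper-quartile scaling and -0.55 without normalization, and Satb1 at 12 h against vehicle passed at -0.82 and -1.13 under the same settings. Both scalings move the median gene downward. Cdh3 at 12 h against 6 h passed at 0.23 with no filter on low counts and at 0.23 in a fit of the 2 groups compared, and the cause was not tested. Without 1 library at a time, Cdh3 at 12 h against 6 h ran from 0.13 to 0.29 and Satb1 at 12 h against vehicle from -0.77 to -0.35. Same-numbered libraries of different groups deviated from their group means with correlations of -0.11 to 0.03, and differently numbered ones with -0.07 to 0.09. No shared deviation by replicate number was thus seen. These correlations cannot say whether same-numbered libraries share a culture or a preparation. With the replicate block 7650 genes were called at 6 h, 7539 at 12 h and 4955 between the times, Tp63 at 6 h was -2.19, and no call of the 7 genes changed. Satb1 and Dlx3 rest on 95 to 279 and 143 to 251 reads a group, which limits their precision.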
